A study of Mus musculus with 25 samples.

Results

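The 44 genes described here act in germ cells: in the piRNA pathway, in the synaptonemal complex and chromosome axis of meiosis, in meiotic telomere attachment and recombination, and in germ cell fate. They were chosen by name, and the rows of the deposited count table whose identifiers carry these names were taken, 44 of 55375 gene rows. All 44 reached a mean of 1 read per library and were tested among 25794 autosomal genes. The RNA came from pools of 5 to 10 mouse 2-cell embryos collected 28 to 29 h after insemination or activation, in 25 libraries and 11 groups. Oocytes came from superovulated females of 4 to 20 weeks of age. Embryos made by in vitro fertilization (IVF, 4 libraries) came from C57BL/6N oocytes and DBA/2 sperm, whereas embryos made by somatic cell nuclear transfer (SCNT) came from BDF1 oocytes that received BDF1 cumulus cell nuclei, so the strain of the oocyte changed with the method and the effects of both cannot be told apart. SCNT control embryos were kept in cytochalasin B during and after activation (2 libraries), and 2 groups of SCNT embryos were injected with mRNA for the histone demethylases Kdm3a or Kdm4d (2 libraries each). LatA control embryos were handled with latrunculin A (2 libraries). The chemically treated embryos were also handled with latrunculin A, and received the histone deacetylase inhibitor trichostatin A (TSA, 25 nM for 8 h), a G9a inhibitor (RK-701, written R701 in the labels, A366 or UNC0638, 1 µM for 24 h), or both: TSA, A366, TSA + RK-701, TSA + A366 and TSA + UNC0638 had 2 libraries each and RK-701 had 3. IVF pools held embryos of both sexes and SCNT pools only female embryos, and genes on the sex chromosomes were left out of the tests.

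Germline genes of this kind are silent in most somatic cells. Their promoters are held inactive by DNA methylation, by a Polycomb complex that contains E2F6 and MGA, and by histone H3 lysine 9 methylation, which G9a and its partner GLP deposit in the mono- and dimethyl forms. Oocytes transcribe many of the same genes during growth and prophase, and stored transcripts pass into the early embryo. In whole-embryo libraries, stored RNA and RNA made by the embryo cannot be told apart.

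The promoters of the members called in the most comparisons with a control are shown here, since most of the calls after treatment described later fall on these genes. Members with equal numbers of calls were ordered by their smallest adjusted p, which placed Tdrd12 behind Majin and Tdrkh. Of the 6 members chosen this way, Terb2 and Majin had no entry in the promoter table. The sequences are from RefSeq on GRCm38.p6, the assembly also known as mm10, and run from 250 bases before to 50 bases after the start of transcription, on the strand of the gene. Capitals mark CACGTG, the E-box bound by MAX and its partners, and GCGGGAA or its reverse complement TTCCCGC, a match to the E2F site. Hormad1 lies at chr3:95559427-95559726 on the plus strand, Slc25a31 at chr3:40708621-40708920 on the plus strand, Tdrkh at chr3:94412994-94413293 on the plus strand and Tex101 at chr7:24672001-24672300 on the minus strand. The Tex101 window starts 4625 bases from the 5′ end of the gene model used for counting.
Hormad1: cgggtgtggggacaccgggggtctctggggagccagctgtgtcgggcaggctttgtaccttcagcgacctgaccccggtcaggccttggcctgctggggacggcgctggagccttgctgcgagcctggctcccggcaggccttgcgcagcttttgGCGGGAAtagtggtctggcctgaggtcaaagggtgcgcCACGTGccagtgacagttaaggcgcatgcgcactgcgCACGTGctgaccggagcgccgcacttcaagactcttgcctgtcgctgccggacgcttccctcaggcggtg
Slc25a31: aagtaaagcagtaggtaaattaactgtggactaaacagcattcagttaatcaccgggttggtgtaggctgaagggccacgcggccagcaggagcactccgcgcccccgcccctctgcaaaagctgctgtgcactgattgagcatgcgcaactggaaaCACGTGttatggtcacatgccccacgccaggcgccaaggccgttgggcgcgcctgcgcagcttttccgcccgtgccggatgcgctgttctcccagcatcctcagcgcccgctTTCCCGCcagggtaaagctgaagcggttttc
Tdrkh: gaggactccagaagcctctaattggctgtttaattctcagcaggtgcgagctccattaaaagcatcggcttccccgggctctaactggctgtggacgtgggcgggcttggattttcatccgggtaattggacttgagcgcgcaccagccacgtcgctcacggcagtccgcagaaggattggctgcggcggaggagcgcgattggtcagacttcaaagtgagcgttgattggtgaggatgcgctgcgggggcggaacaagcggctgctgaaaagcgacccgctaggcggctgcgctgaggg
Tex101: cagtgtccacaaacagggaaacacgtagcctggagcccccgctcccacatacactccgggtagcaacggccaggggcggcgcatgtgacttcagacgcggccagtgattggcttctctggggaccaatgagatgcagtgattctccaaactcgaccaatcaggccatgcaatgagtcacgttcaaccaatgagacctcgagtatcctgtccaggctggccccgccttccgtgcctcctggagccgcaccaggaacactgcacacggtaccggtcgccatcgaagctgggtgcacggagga
Hormad1 held 2 E-boxes and 1 E2F-like match, and Slc25a31 held 1 of each. Neither motif was found in the windows of Tdrkh and Tex101. Among the 37 members with a promoter entry, 15 (40.5%) held an E-box, against 7.15% of all 32851 promoter windows in the table. The E2F-like letters were in 8 member promoters (21.6%), against 4.60% of all windows, and 18 of the 37 members held one motif or the other, against 3710 of the 32851 windows. The median number of CG dinucleotides was 19 in the member promoters and 7 in all windows. Both motifs contain CG, so matches become more likely as CG number grows, and its part in these shares was not tested. The list was also drawn up as genes of which many are repressed through G9a, E2F6 or DNA methylation. The 2 motifs are sites for E2F and MAX proteins of that repressor, so the shares may partly follow from how the genes were chosen. Members gave 1 window each, whereas all windows include several start sites for some genes. These counts describe letters in a fixed window, taken for each member from the start site nearest to its gene model. For Piwil1, which held 2 E-boxes, that start lies 33722 bases from the 5′ end of the model, for Mei1 12480 bases and for Meioc 1869 bases.

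Libraries held 6662727 to 21188688 reads assigned to genes, with a median of 13994840. The members took 0.363% to 0.394% of these reads in the IVF libraries and 0.151% to 0.298% in the SCNT libraries. Levels of different genes were compared as TPM, a read count divided by gene length and scaled to the same total in each library. The mean TPM of the members over all libraries ran from 0.0472 (Piwil4) to 498 (Sycp3), with a median of 13.5. It was above 10 for 26 members and under 1 for 3. The 2 LatA control libraries differed from each other: members took 0.257% of gene reads in the first and 0.173% in the second. This share is weighted to abundant members such as Brdt and Sycp3, and some members, such as Hormad1 and Stk31, were higher in the second library. Where leaving out either LatA control library moved a count of calls by over 1.5 times, this is stated.

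**Figure D1:**
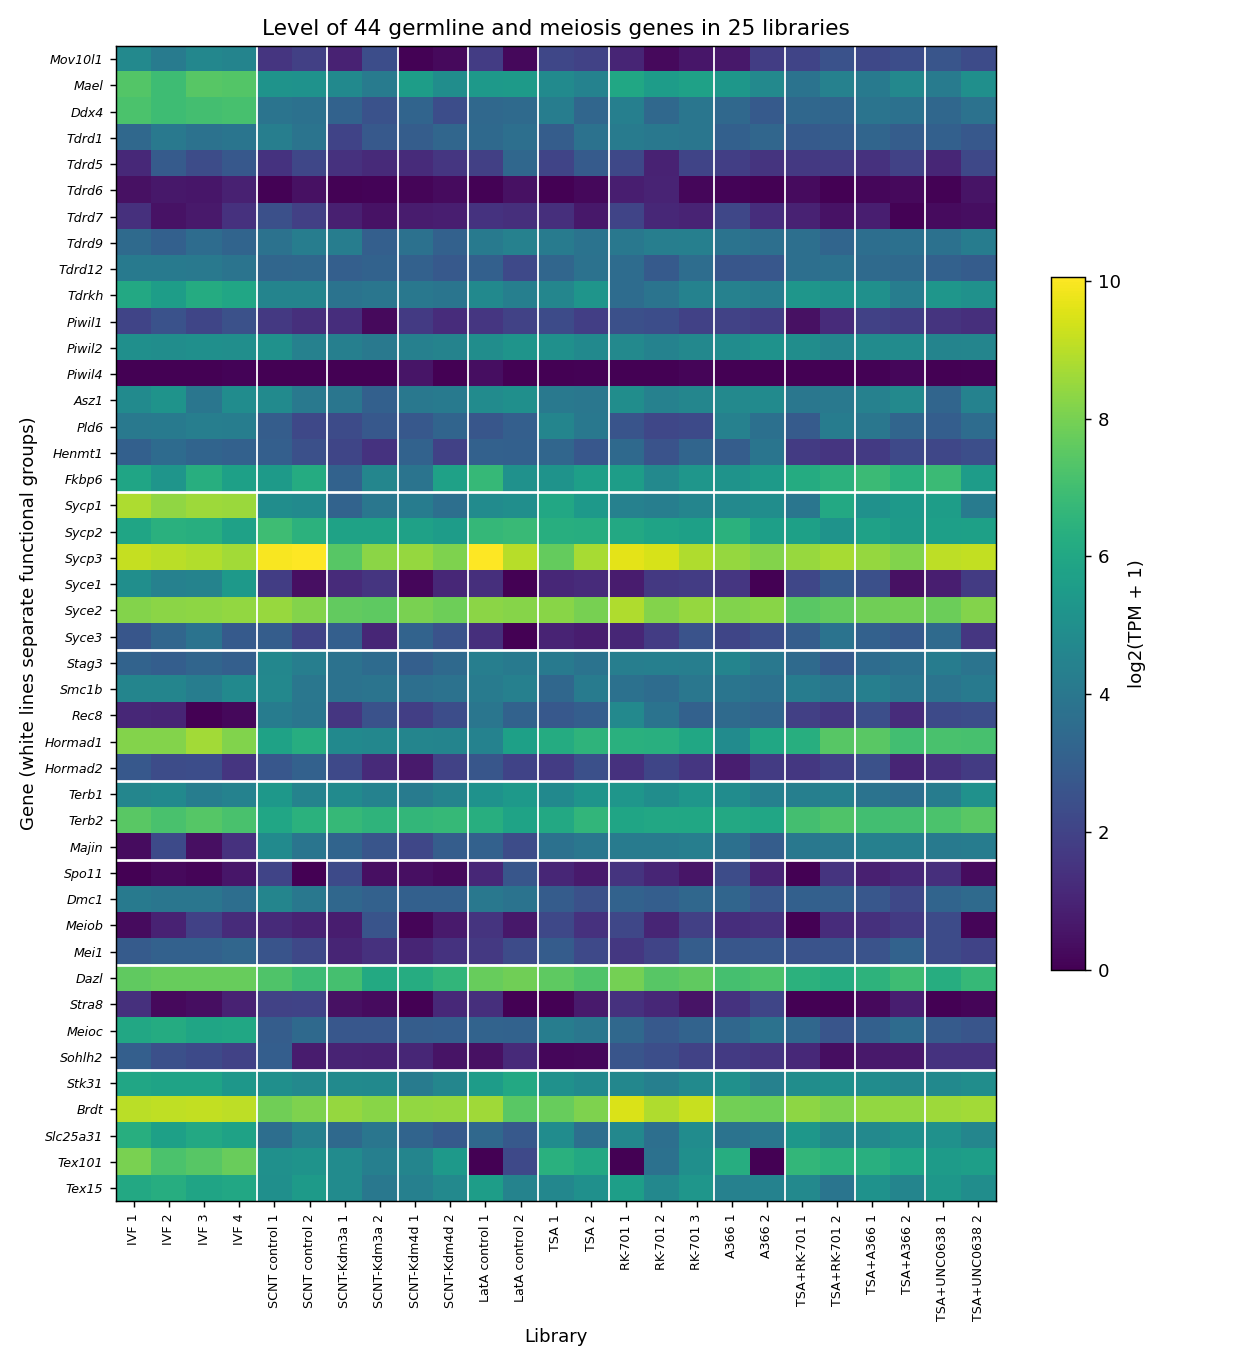
Level of each of the 44 members (rows, ordered by functional group, separated by white lines) in each of the 25 libraries (columns), as the colour of log2(TPM + 1). Sycp3, Brdt and Syce2 are among the 4 brightest rows in every group, and Ddx4, Sycp1 and Meioc are brighter in the 4 IVF libraries than in all SCNT libraries.

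The first comparison was of the 2 control groups of SCNT embryos with IVF embryos. More members were called lower than higher after nuclear transfer, among them Ddx4, Mael, Sycp1, Hormad1 and Meioc. In the SCNT control the count was 3 higher and 16 lower, against 8.12% and 6.87% of all genes. In the LatA control it was 2 higher and 18 lower, against 8.8% and 6.51% of all genes. A gene was called when the adjusted p of edgeR's quasi-likelihood test was under 0.05 and the fold change over 2. The median log2 fold change of the members was -0.91 in the SCNT control and -0.54 in the LatA control, against 0.01 and 0.04 over all genes tested. Both controls were compared with the same IVF libraries. The same 15 members were called lower in both, and the same 2 higher. Of the 17 piRNA pathway members, 6 were lower in each control and none higher. All 5 members in the mixed group of other germ cell genes were lower in the SCNT control, and 4 of them in the LatA control. The 4 recombination genes gave 0 calls in the SCNT control and 1, Mei1, in the LatA control. Summed over the 12 oocyte-stored transcripts listed as a reference (zona pellucida genes, Gdf9, Bmp15 and others), the TPM was 2999 to 3763 in IVF, 2127 to 2575 in the SCNT control and 2188 to 2198 in the LatA control, and 5 of the 11 tested were called lower in each control. The largest parts of this sum were Oosp1 and Bmp15, with means of 1257 and 557 TPM over all libraries. Bmp15 lies on the X chromosome and entered the sum but not the tests. The part of oocyte-stored RNA in the lower member levels was not tested.

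Ddx4, the germ cell RNA helicase also called Vasa, was among the members with a wide gap. Its level in CPM, a read count scaled to library size but not to gene length, was 164, 129.9, 150.2 and 157 in the 4 IVF libraries, 11.8 and 12.5 in the SCNT control and 9.18 and 8.38 in the LatA control. No SCNT library reached the IVF range. The log2 fold change was -3.63 ± 0.33 (SE), adjusted p = 1.29e-08, in the SCNT control and -4.09 ± 0.34 (SE), adjusted p = 3.16e-09, in the LatA control. In the treated groups Ddx4 lay between 4.95% of the IVF mean with A366 and 10.00% with TSA + A366. The individual values were 9.75 and 6.07 with Kdm3a, 10.3 and 5.18 with Kdm4d, 16.7 and 8.99 with TSA, 17.8, 8.97 and 13.3 with RK-701, 9.06 and 5.84 with A366, 11.03 and 10.53 with TSA + RK-701, 16.1 and 14.0 with TSA + A366 and 11.5 and 14.8 with TSA + UNC0638 CPM.

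Mael, a piRNA pathway protein of the germ cell nuage, was at 104, 75.3, 114 and 107 CPM in IVF, 17.4 and 19.8 in the SCNT control and 22.4 and 20.9 in the LatA control. The log2 fold change was -2.42 ± 0.30 (SE), adjusted p = 1.2e-06, in the former and -2.21 ± 0.29 (SE), adjusted p = 3.7e-06, in the latter. With treatment, Mael was at 18.2 and 12.5 CPM (Kdm3a), 33.4 and 20.9 (Kdm4d), 14.2 and 11.9 (TSA), 33.1, 25.6 and 28.2 (RK-701), 21.2 and 13.7 (A366), 8.87 and 14.4 (TSA + RK-701), 11.1 and 16.0 (TSA + A366) and 12.4 and 20.9 (TSA + UNC0638). The 3 RK-701 libraries were the highest of the chemically treated ones. Mov10l1, the RNA helicase that starts piRNA precursor processing, was at 38.6, 25.8, 38.1 and 34.2 CPM in IVF, against 2.32 and 3.82 in the SCNT control and 3.26 and 0.186 in the LatA control. Its log2 fold changes were -3.46 ± 0.68 (SE), adjusted p = 0.000508, and -4.20 ± 0.71 (SE), adjusted p = 9.41e-05. Mov10l1 was at 1.57 and 7.27 CPM with Kdm3a, 0.0806 and 0.35 with Kdm4d, 4.32 and 3.97 with TSA, 1.31, 0.254 and 0.68 with RK-701, 0.755 and 3.23 with A366, 5.17 and 8.02 with TSA + RK-701, 5.57 and 6.49 with TSA + A366 and 9.01 and 6.25 with TSA + UNC0638. These libraries all stayed under the IVF range.

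Tdrkh, the mitochondrial Tudor protein on which piRNA ends are trimmed, was at 148, 103, 167 and 140.3 CPM in IVF, 39.3 and 46.0 in the SCNT control and 50.9 and 32.4 in the LatA control, with log2 fold changes of -1.71 ± 0.28 (SE), adjusted p = 5.49e-05, and -1.74 ± 0.28 (SE), adjusted p = 4.46e-05. Oaz3 on the opposite strand overlaps 5.5% of its exon length. Tdrd12, another Tudor protein needed for secondary piRNAs, was at 26.1, 24.8, 25.9 and 21.7 CPM in IVF, 11.04 and 13.3 in the SCNT control and 10.3 and 4.38 in the LatA control. Its call in the SCNT control was close to the threshold, at -1.01 ± 0.30 (SE), adjusted p = 0.0159, and was clearer in the LatA control, at -1.72 ± 0.31 (SE), adjusted p = 0.000203. The SCNT control call of Tdrd12 was lost with a replicate block, without the first or the third IVF library and without either SCNT control library. Its place among the members lower in both controls is therefore not firm. Pld6, the mitochondrial endonuclease that cuts piRNA precursors, had mean levels of 11.3 ± 1.13 CPM (SD, n = 4) in IVF and 2.73 ± 0.932 and 3.26 ± 0.389 (n = 2 each) in the SCNT and LatA controls, and was called lower in both.

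Other piRNA genes were not called. Piwil2, one of the PIWI proteins themselves, stood at 71.7% and 85.4% of the IVF mean in the SCNT and LatA controls and was called in no comparison. Tdrd9, a Tudor domain helicase, stood at 142% and 160.1%, also with no call. Piwil4 had at most 13 reads in any library, which is too few for a comparison.

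In the synaptonemal complex, the zipper between paired meiotic chromosomes, 2 of the 6 members were lower in the SCNT control and 3 in the LatA control. Sycp1, its transverse filament, was at 582, 428, 517 and 498 CPM in IVF and at 30.2 and 32.1 in the SCNT control and 31.4 and 29.8 in the LatA control. This amounts to 6.15% and 6.04% of the IVF mean, with log2 fold changes of -4.02 ± 0.46 (SE), adjusted p = 3.5e-07, and -4.05 ± 0.46 (SE), adjusted p = 3.64e-07. Treatment left Sycp1 at 11.8 and 22.3 CPM with Kdm3a, 25.1 and 17.4 with Kdm4d, 68.2 and 50.1 with TSA, 22.3, 20.7 and 24.6 with RK-701, 28.9 and 32.3 with A366, 20.1 and 96.3 with TSA + RK-701, 45.6 and 56.0 with TSA + A366 and 69.6 and 24.0 with TSA + UNC0638. The libraries of TSA + RK-701 and of TSA + UNC0638 disagreed with each other by more than the other pairs did. Syce1, a central element protein, had 15.5 ± 5.68 CPM (SD, n = 4) in IVF and 0.612 ± 0.64 and 0.353 ± 0.499 (n = 2 each) in the controls, log2 fold changes of -4.69 and -5.24. Syce3, also of the central element, was at 1.74 ± 0.767 CPM in IVF, 0.811 ± 0.359 in the SCNT control and 0.136 ± 0.192 in the LatA control, and was called in the latter.

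The lateral element genes Sycp2 and Sycp3 and the central element gene Syce2 were not called in either control. In TPM, Syce2 was at 317 in IVF, 326 in the SCNT control and 306 in the LatA control. Sycp3 was at 495, 1019 and 779 TPM in the same order, the LatA libraries being at 424 and 174 CPM. Exons of Chpt1 on the opposite strand overlap 52.2% of the Sycp3 exon length, and reads there could not be assigned to either gene.

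Hormad1, which coats unpaired chromosome axes in meiotic prophase, was at 184, 179, 264 and 181 CPM in IVF, 27.2 and 43.2 in the SCNT control and 11.6 and 24.7 in the LatA control. The log2 fold changes were -2.52 ± 0.35 (SE), adjusted p = 6.41e-06, and -3.49 ± 0.37 (SE), adjusted p = 1.5e-07. Terb2, a protein that ties telomeres to the nuclear envelope, was lower too, going from 137, 109, 137 and 112 CPM in IVF to 36.8 and 60.2 in the SCNT control and 52.5 and 32.5 in the LatA control, log2 fold changes of -1.35 ± 0.22 (SE), adjusted p = 6.24e-05, and -1.54 ± 0.22 (SE), adjusted p = 1.43e-05. Meioc, which holds germ cells in meiotic prophase, was at 109, 117, 104 and 109 CPM in IVF. It was at 9.10 and 15.3 CPM in the SCNT control and 12.0 and 10.1 in the LatA control, with log2 fold changes of -3.16 ± 0.28 (SE), adjusted p = 8.52e-09, and -3.30 ± 0.29 (SE), adjusted p = 5.39e-09.

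Among the other germ cell genes, Slc25a31, the germ cell ADP/ATP carrier of mitochondria, was at 61.8, 39.4, 53.3 and 43.0 CPM in IVF, 6.97 and 14.2 in the SCNT control and 6.41 and 3.54 in the LatA control. It was called lower in both, with log2 fold changes of -2.21 ± 0.40 (SE), adjusted p = 0.000165, and -3.28 ± 0.42 (SE), adjusted p = 2.71e-06. Tex101, a germ cell surface glycoprotein, was at 159, 86.9, 109.6 and 134 CPM in IVF and 15.1 and 19.5 in the SCNT control, but at 0 and 1.68 in the LatA control. The fold change in the LatA control, -7.47 ± 1.40 (SE), adjusted p = 0.000275, therefore rests on a control group with almost no reads, and that in the SCNT control, -2.82 ± 0.99 (SE), adjusted p = 0.0418, was smaller. The latter call was lost with DESeq2, with a replicate block and when any one library other than the second IVF library was left out, so that the place of Tex101 among the 15 members lower in both controls is not firm. Tex101 also had no reads in 1 of the 3 RK-701 libraries (0, 6.43 and 15.7 CPM) and in 1 of the 2 A366 libraries (39.8 and 0 CPM).

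Brdt, a bromodomain protein of the testis and oocyte, was abundant everywhere, at 972, 1008, 1079 and 1020.2 CPM in IVF, 345 and 475 in the SCNT control and 626 and 255 in the LatA control. It was called lower in both, at -1.32 ± 0.23 (SE), adjusted p = 0.000161, and -1.21 ± 0.23 (SE), adjusted p = 0.000383. Stk31, a Tudor domain kinase of germ cells, was at 73.2, 65.1, 68.0 and 47.5 CPM in IVF, 29.2 and 27.7 in the SCNT control and 47.4 and 58.9 in the LatA control, and was called lower in the former (-1.15 ± 0.23 (SE), adjusted p = 0.000466). Tex15, needed for piRNA-directed silencing, was at 48.4% and 43.2% of the IVF mean and was called in both. Mei1 (-1.67) and Sohlh2 (-2.89) were called lower in the LatA control and not in the SCNT control (-1.11 and -0.59). When the 2 controls were compared with each other, the count was 0 higher and 0 lower, against 0.00388% and 0.00775% of all genes. The unadjusted p was under 0.05 for 9 members, against 2016 of the 25794 genes.

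**Figure D2:**
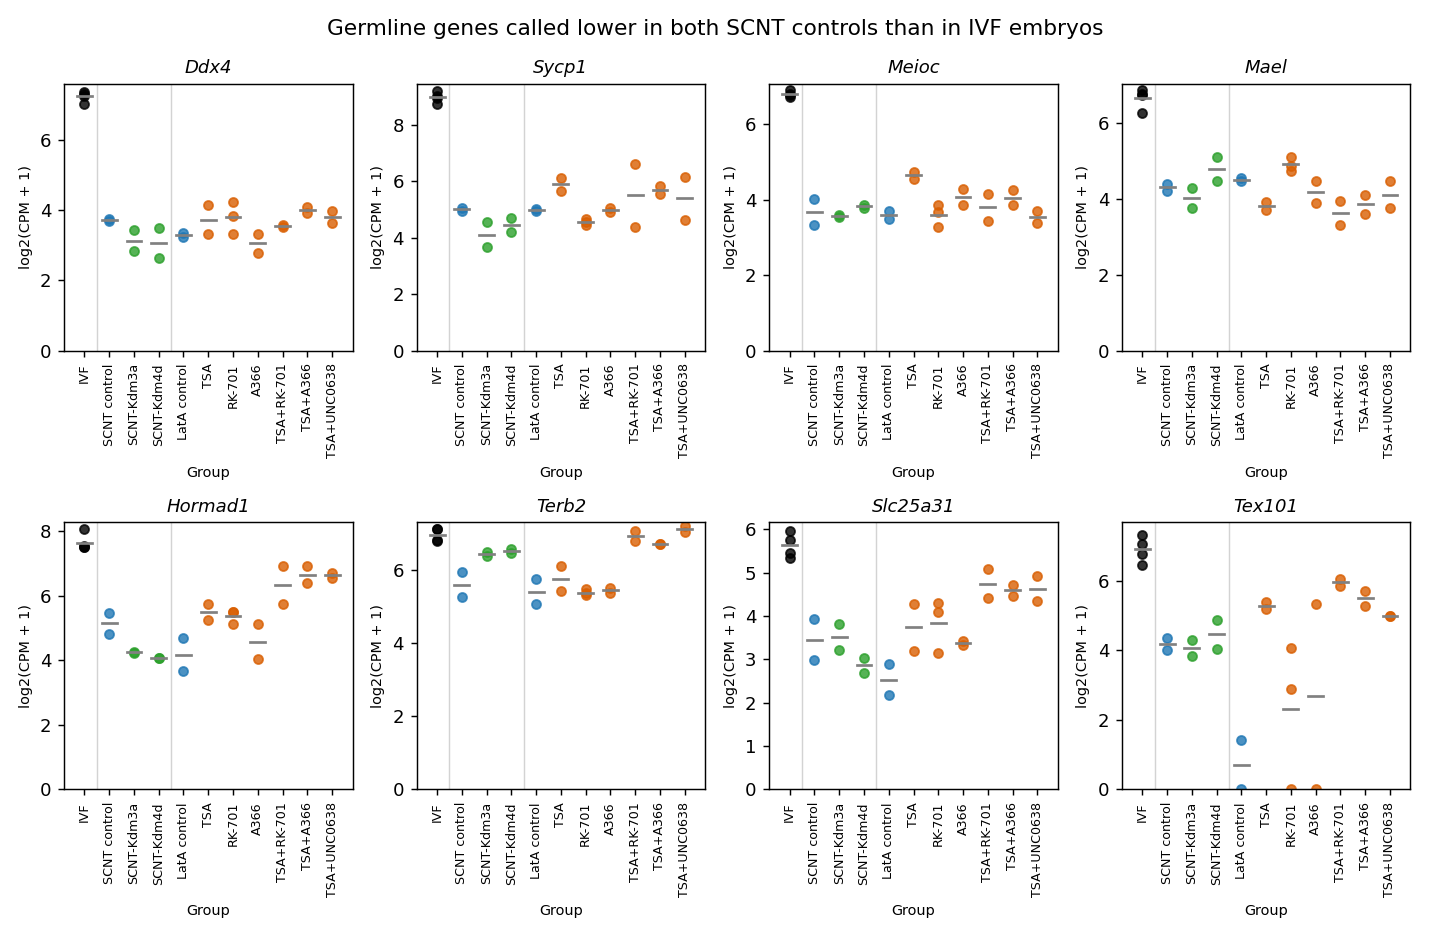
Level of 8 members called lower in both SCNT controls than in IVF embryos, as log2(CPM + 1) for every library (points) with the group mean of these log values (grey bar); IVF is black, controls blue, injected groups green and chemically treated groups orange. Ddx4, Sycp1, Meioc and Mael (upper row) lie below all IVF libraries in every SCNT group, while Hormad1, Terb2, Slc25a31 and Tex101 (lower row) lie above both LatA control libraries in all 3 co-treated groups.

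A few members went the other way. Rec8, the meiotic cohesin subunit cleaved at anaphase, was at 0.937, 0.807, 0 and 0.14 CPM, in IVF embryos and at 11.04 and 10.52 in the SCNT control and 9.83 and 4.75 in the LatA control. The log2 fold changes were 4.65 ± 0.66 (SE), adjusted p = 9.59e-06, and 4.10 ± 0.66 (SE), adjusted p = 4.86e-05. Its values in the treated groups were 1.78 and 4.45 CPM (Kdm3a), 2.34 and 3.78 (Kdm4d), 3.81 and 5.09 (TSA), 16.8, 9.14 and 5.18 (RK-701), 7.05 and 6.18 (A366), 2.31 and 1.88 (TSA + RK-701), 3.71 and 1.15 (TSA + A366) and 3.45 and 3.53 (TSA + UNC0638). All of these lay above the highest IVF library. Majin, the membrane anchor that works with Terb1 and Terb2, was at 0.156, 2.24, 0.195 and 1.05 CPM in IVF, 12.7 and 7.57 in the SCNT control and 4.02 and 1.86 in the LatA control. Its log2 fold change was 3.35 ± 0.52 (SE), adjusted p = 3.15e-05, in the SCNT control and 1.59 ± 0.54 (SE), adjusted p = 0.0357, in the LatA control, where one library fell within the IVF range. Majin was at 5.61 and 3.59 CPM with Kdm3a, 2.26 and 4.55 with Kdm4d, 6.10 and 7.94 with TSA, 8.52, 8.80 and 9.52 with RK-701, 6.29 and 3.502 with A366, 9.80 and 10.6 with TSA + RK-701, 12.6 and 11.8 with TSA + A366 and 11.3 and 11.2 with TSA + UNC0638. Stag3, a meiotic cohesin subunit like Rec8, was at 14.4, 11.8, 15.7 and 12.8 CPM in IVF, 32.8 and 29.6 in the SCNT control and 27.6 and 21.8 in the LatA control. It was called higher in the SCNT control (1.19 ± 0.23 (SE), adjusted p = 0.000436), and its change in the LatA control was under 2-fold (0.86 ± 0.23 (SE), adjusted p = 0.0088). The other groups had Stag3 at 24.4 and 20.6 CPM (Kdm3a), 13.7 and 19.3 (Kdm4d), 24.0 and 20.6 (TSA), 27.0, 28.9 and 27.0 (RK-701), 33.8 and 22.2 (A366), 18.8 and 12.3 (TSA + RK-701), 19.5 and 22.4 (TSA + A366) and 34.3 and 24.8 (TSA + UNC0638).

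**Figure D3:**
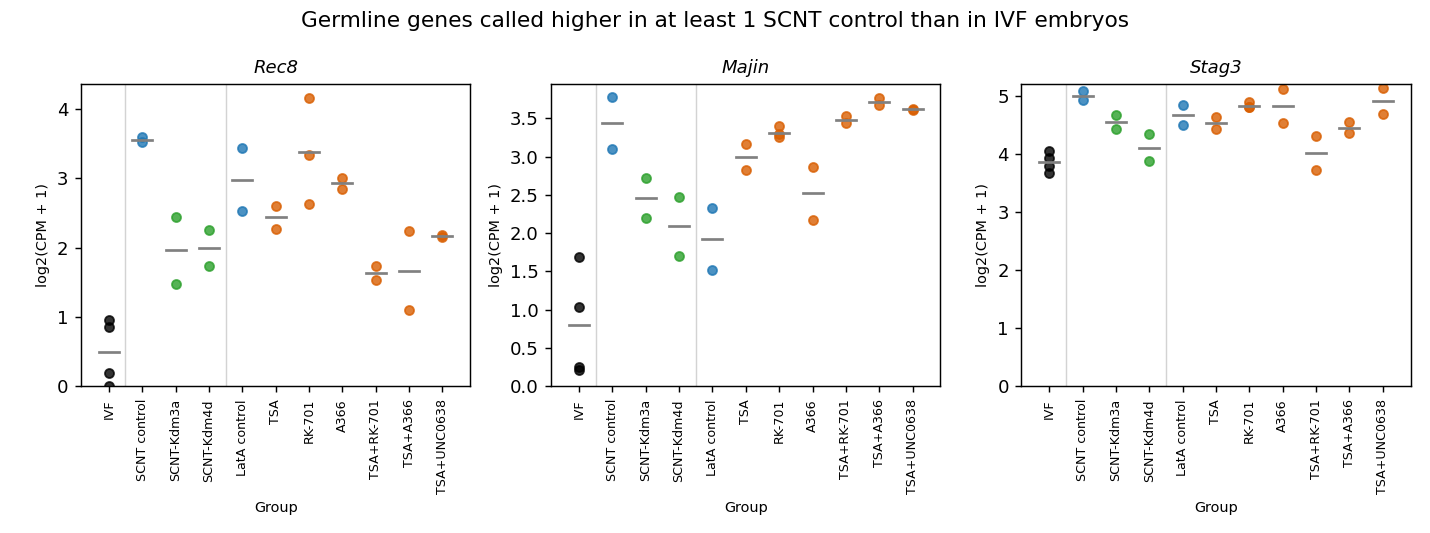
Level of Rec8, Majin and Stag3 as log2(CPM + 1) for every library (points) with the group mean of these log values (grey bar), coloured by type of group as IVF (black), controls (blue), injected (green) and chemically treated (orange). Rec8 is above all 4 IVF libraries in all 10 SCNT groups.

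The second question was whether removing H3 lysine 9 methylation with injected demethylase mRNA moved these genes. The injected transcripts were present: Kdm3a was at 3466 and 3116 CPM in the SCNT-Kdm3a libraries, against 109 to 266 elsewhere, and Kdm4d at 18521 and 12522 CPM in the SCNT-Kdm4d libraries, against 0.717 to 5.08 elsewhere. No member rose by the call rule after either injection. Against the SCNT control, the count with Kdm3a was 0 higher and 2 lower, against 2.39% and 1.78% of all genes. With Kdm4d it was 0 higher and 2 lower, against 2.1% and 1.04% of all genes. Sycp3 fell in both, from 360.3 and 441 CPM to 87.2 and 169.5 with Kdm3a (-1.64 ± 0.35 (SE), adjusted p = 0.00499) and 179 and 144 with Kdm4d (-1.31 ± 0.35 (SE), adjusted p = 0.0263). Tdrd1, a Tudor protein that binds PIWI proteins, fell with Kdm3a, from 29.4 and 24.9 to 6.71 and 13.9 CPM (-1.41 ± 0.34 (SE), adjusted p = 0.0122). Mov10l1 fell with Kdm4d (-3.74 ± 0.96 (SE), adjusted p = 0.0216) and was also lower there than with Kdm3a (-4.22 ± 0.94 (SE), adjusted p = 0.0416), the only member in a comparison that counted 0 higher and 1 lower, against 0.143% and 0.182% of all genes. Terb2 had adjusted p under 0.05 but a change under 2-fold, at 88.3 and 82.2 CPM with Kdm3a (0.81 ± 0.24 (SE), adjusted p = 0.0439) and 86.4 and 92.9 with Kdm4d (0.88 ± 0.24 (SE), adjusted p = 0.0312). Hormad1 was at 18.1 and 17.7 CPM with Kdm3a and at 15.9 and 16.0 with Kdm4d, with adjusted p of 0.118 and 0.0689. The Mov10l1 and Sycp3 calls with Kdm4d were lost when any one of the 4 compared libraries was left out and when the LatA control served as the reference. With Kdm3a, both calls were lost without the first Kdm3a library, and the Tdrd1 call also without the first SCNT control library or with the LatA control as the reference.

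The third question was the effect of the single chemicals, each against the LatA control. With TSA, the count was 0 higher and 0 lower, against 0.159% and 0.159% of all genes. The unadjusted p was under 0.05 for 13 members, against 3324 of the 25794 genes. With A366, the count was 0 higher and 0 lower, against 0.0814% and 0.0388% of all genes. The unadjusted p was under 0.05 for 9 members, against 3090 of the 25794 genes. DESeq2 gave 5 and 2 calls in these comparisons, and without the second LatA control library 4 and 3 members were called. With RK-701, it was 3 higher and 1 lower, against 1.73% and 1.62% of all genes. Hormad1 was at 43.9, 44.1 and 33.6 CPM (1.18 ± 0.34 (SE), adjusted p = 0.0409), against 36.9 and 52.7 with TSA (1.32 ± 0.37 (SE), adjusted p = 0.102) and 15.4 and 33.6 with A366 (0.45 ± 0.37 (SE), adjusted p = 0.648). Slc25a31 was at 16.1, 7.87 and 18.8 CPM with RK-701 (1.496 ± 0.41 (SE), adjusted p = 0.0277), 18.5 and 8.20 with TSA and 9.06 and 9.82 with A366. Brdt rose with RK-701 to 1128, 755 and 932 CPM (1.09 ± 0.24 (SE), adjusted p = 0.00772), which overlaps the IVF range, and was at 326 and 462 with TSA and 394 and 358 with A366. Stk31 fell with RK-701 to 24.1, 19.7 and 26.9 CPM (-1.17 ± 0.22 (SE), adjusted p = 0.00242), and was at 32.0 and 28.6 with TSA and 33.1 and 20.7 with A366.

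The summed TPM of the oocyte-stored transcripts was 3619 to 4702 in the RK-701 libraries, above both the LatA control and IVF ranges given above, and its part in the RK-701 calls was not tested. None of the 4 RK-701 calls was kept when only the compared libraries entered the fit, and the count was 1 without the second LatA control library or without the first RK-701 library, and 2 without the third RK-701 library. A366 compared directly with RK-701 counted 1 higher and 1 lower, against 3.99% and 4.1% of all genes. Brdt was lower with A366 (-1.32 ± 0.24 (SE), adjusted p = 0.000508), and Pld6, at 11.4 and 6.59 CPM with A366 and 2.74, 1.86 and 2.04 with RK-701, was higher (2.01 ± 0.42 (SE), adjusted p = 0.00169).

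The fourth question was the effect of TSA combined with a G9a inhibitor. Most of the called members rose, among them Hormad1 and Terb2. Against the LatA control, TSA + RK-701 counted 7 higher and 1 lower, against 3.65% and 2.52% of all genes. TSA + A366 counted 7 higher and 2 lower, against 3.05% and 2.94% of all genes, and TSA + UNC0638 counted 6 higher and 0 lower, against 3.64% and 2.54% of all genes. The 3 groups share the LatA control libraries. Hormad1, Terb2, Slc25a31 and Tex101 were called higher in all 3. Of the 15 members called lower in both controls than in IVF, 6 were called higher with at least 1 co-treatment (those 4, Tdrkh and Tdrd12) and 9 with none. Both comparisons use the LatA control libraries, so a gene that was low there by chance would enter both. The same share over all genes was not taken, so the 6 of 15 cannot be read as particular to the members. The places of Tex101 and Tdrd12 among the 15 were not firm. The summed TPM of the oocyte-stored transcripts was 1241 to 1490.2 with TSA + RK-701, 1709.9 to 2035 with TSA + A366 and 1581 to 2114 with TSA + UNC0638, and its part in these results was not tested.

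Hormad1 reached 52.9 and 119.8 CPM with TSA + RK-701, 119.8 and 82.3 with TSA + A366 and 103 and 92.7 with TSA + UNC0638. All 6 libraries were above both LatA control libraries and below all 4 IVF libraries. The log2 fold changes were 2.27 ± 0.37 (SE), adjusted p = 0.000388, for TSA + RK-701, 2.49 ± 0.38 (SE), adjusted p = 0.000161, for TSA + A366 and 2.45 ± 0.38 (SE), adjusted p = 0.000148, for TSA + UNC0638. Terb2 reached 108 and 131, 104 and 104 and 129.8 and 144 CPM in the same order of groups, against 109 to 137 in IVF. It stood at 41.8 and 67.5 CPM with TSA, 38.3, 43.3 and 40.0 with RK-701 and 44.5 and 40.1 with A366 alone. Its log2 fold changes were 1.49 ± 0.25 (SE), adjusted p = 0.000383, with TSA + RK-701, 1.28 ± 0.24 (SE), adjusted p = 0.00134, with TSA + A366 and 1.69 ± 0.25 (SE), adjusted p = 8.85e-05, with TSA + UNC0638.

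Slc25a31 was at 32.8 and 20.3 CPM with TSA + RK-701, 21.2 and 25.4 with TSA + A366 and 29.4 and 19.3 with TSA + UNC0638, or 47.2% to 53.7% of the IVF mean. The log2 fold changes were 2.39, 2.20 and 2.27, with adjusted p of 0.000895, 0.00183 and 0.00133. Tex101 was at 65.4 and 57.1, 51.6 and 38.1 and 31.1 and 31.1 CPM. With TSA alone it was at 40.7 and 35.9 CPM, within the range of the co-treated libraries (adjusted p = 0.0591 against the LatA control). No Tex101 call of the co-treated groups was kept when the SCNT control served as the reference in place of the LatA control, nor were the Slc25a31 calls with TSA + A366 and TSA + UNC0638. The Tex101 calls with TSA + A366 and TSA + UNC0638 were also lost without the first LatA control library.

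Tdrkh was at 90.4 and 84.3 CPM with TSA + RK-701 (1.06 ± 0.30 (SE), adjusted p = 0.0222) and 95.6 and 79.3 with TSA + UNC0638 (1.07 ± 0.30 (SE), adjusted p = 0.0234). It was not called with TSA + A366, whose libraries stood at 75.4 and 42.5 CPM. In the other groups Tdrkh was at 32.9 and 37.6 CPM (Kdm3a), 38.5 and 35.3 (Kdm4d), 44.1 and 74.0 (TSA), 20.4, 26.8 and 39.7 (RK-701) and 39.5 and 34.5 (A366). Tdrd12 was at 20.2 and 21.7 CPM with TSA + RK-701 (1.49 ± 0.34 (SE), adjusted p = 0.00532), 16.9 and 16.3 with TSA + A366 (1.15 ± 0.34 (SE), adjusted p = 0.0309) and 13.8 and 11.02 with TSA + UNC0638, where it was not called. The Tdrd12 calls were lost with the SCNT control as the reference, and the Tdrd12 and Tdrkh calls with only the compared libraries or without the second LatA control library. Elsewhere Tdrd12 was at 12.8 and 14.7 CPM (Kdm3a), 13.5 and 10.9 (Kdm4d), 11.7 and 18.3 (TSA), 14.0, 8.55 and 14.9 (RK-701) and 7.47 and 7.55 (A366). Majin was called higher with TSA + A366 (2.02 ± 0.60 (SE), adjusted p = 0.0325) and TSA + UNC0638 (1.91 ± 0.60 (SE), adjusted p = 0.0444), and of its 2 SCNT control libraries, given above, 1 reached these levels and 1 was below all 4 treated libraries. Syce3 was called higher with TSA + RK-701 and Mei1 with TSA + A366. The calls of Majin, Syce3 and Mei1 were all lost with the SCNT control as the reference and with only the compared libraries.

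The members that fell were fewer. Dazl, an RNA-binding protein of germ cells, fell with TSA + RK-701 from 203 and 196 to 103 and 91.0 CPM (-1.04 ± 0.23 (SE), adjusted p = 0.00465). With TSA + A366, Terb1 fell from 40.4 and 42.4 to 19.4 and 16.8 CPM (-1.19 ± 0.29 (SE), adjusted p = 0.00839) while its partner Terb2 rose, and Dmc1, the meiotic recombinase, fell from 11.1 and 8.47 to 5.00 and 3.04 CPM (-1.29 ± 0.36 (SE), adjusted p = 0.0206). These falls were not firm. The Dazl and Terb1 calls were lost with the SCNT control as the reference, and those of all 3 genes with only the compared libraries. Dazl was also lost without the first LatA control library or the second TSA + RK-701 library, Terb1 without either TSA + A366 library, and Dmc1 without the first LatA control library or the second TSA + A366 library. Stk31 and Brdt were not called in any co-treated group against the LatA control. Stk31 was at 37.1 and 41.3 CPM with TSA + RK-701, 35.6 and 29.8 with TSA + A366 and 35.1 and 37.5 with TSA + UNC0638. Brdt was at 657 and 567, 684 and 652 and 803 and 801 CPM in these groups.

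When the fit held no other libraries than the compared ones, the calls went from 8 to 4 for TSA + RK-701 and from 9 to 3 for TSA + A366. The TSA + RK-701 count was 5 without its second library or without the second LatA control library, the TSA + A366 count was 5 and 4 without its first and second library, and the TSA + UNC0638 count was 10 without the first LatA control library. Hormad1 was called in all 3 groups under every alternative and with any one library left out. Terb2 was too, except that its call with TSA + A366 was lost with only the compared libraries or without the second LatA control library.

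**Figure D4:**
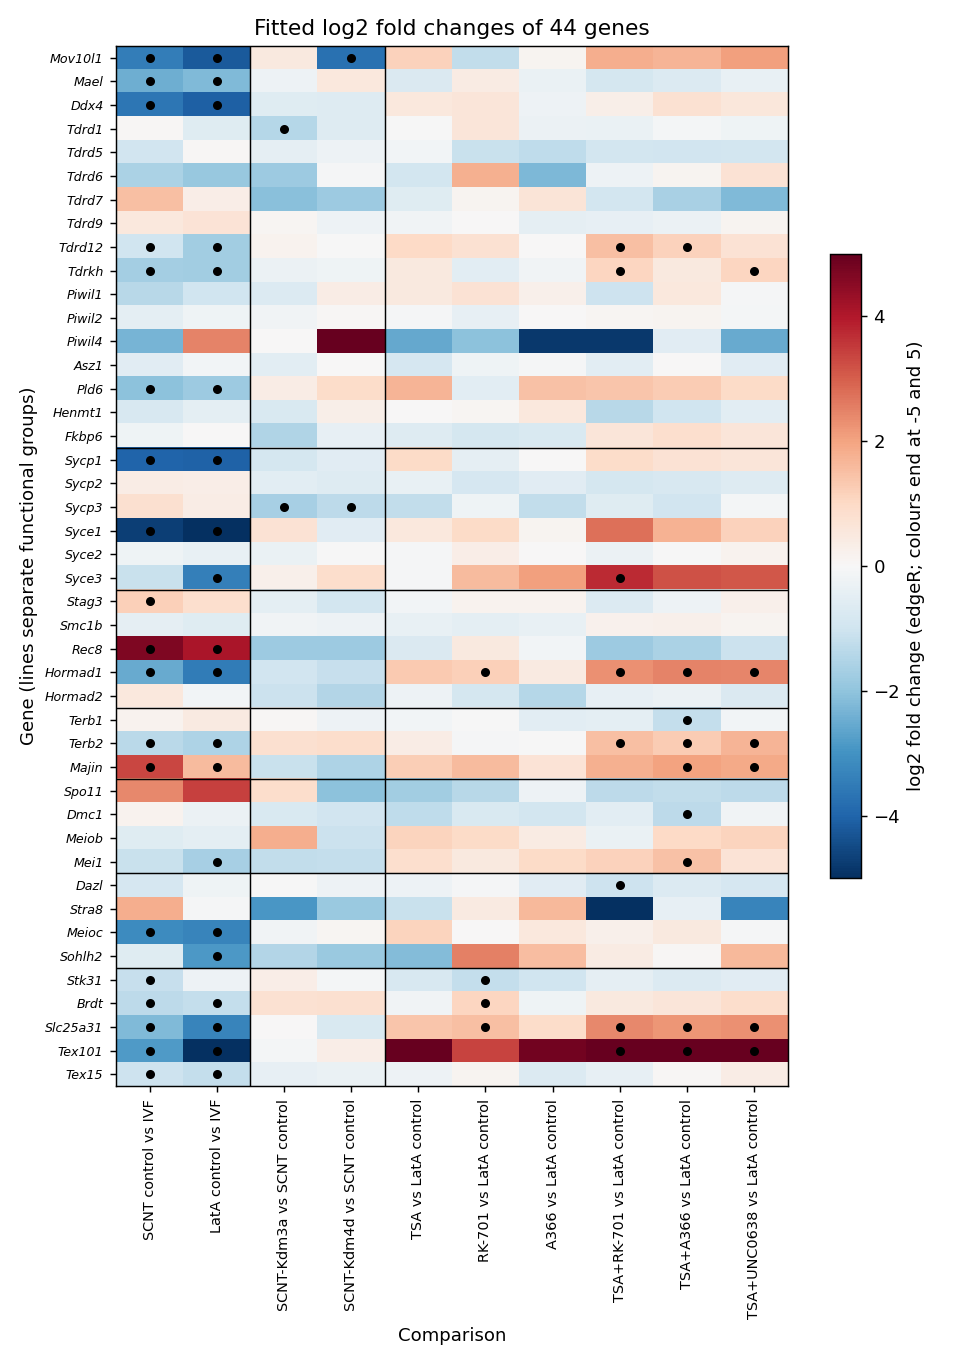
Fitted log2 fold change of each member (rows, grouped by function) in 10 comparisons with a control (columns), red for higher and blue for lower in the first-named group, with a black dot where the gene was called. Most dots in the first 2 columns lie on blue, and the dots in the last 3 columns fall on few rows, with Hormad1, Terb2, Slc25a31 and Tex101 marked in all 3.

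Adding TSA to a G9a inhibitor was also tested directly. TSA + RK-701 against RK-701 counted 8 higher and 4 lower, against 5.33% and 4.91% of all genes. Terb2 (1.56 ± 0.22 (SE), adjusted p = 1.12e-05), Tdrkh (1.597 ± 0.27 (SE), adjusted p = 0.000108) and Mov10l1 (3.07 ± 0.68 (SE), adjusted p = 0.002) were higher in the combination, and these calls were kept under every alternative and with any one library left out. Mael (-1.32 ± 0.29 (SE), adjusted p = 0.00223), Rec8, Henmt1, which methylates piRNA ends, and Piwil1, a PIWI protein, were lower. These 4 falls were not firm. All were lost without the first TSA + RK-701 library, and those of Rec8, Henmt1 and Piwil1 also without the first RK-701 library. A replicate block removed the Henmt1 and Piwil1 calls. The count of calls in this comparison was 6 without the first RK-701 library and 5 without the second TSA + RK-701 library. TSA + A366 against A366 counted 3 higher and 0 lower, against 3.09% and 1.67% of all genes, the called genes being Hormad1 (2.04 ± 0.37 (SE), adjusted p = 0.0013), Terb2 (1.29 ± 0.24 (SE), adjusted p = 0.0018) and Tdrd12 (1.14 ± 0.34 (SE), adjusted p = 0.0386). Without the second A366 library 1 call was left.

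The effect of adding an inhibitor to TSA was tested in the same way. TSA + RK-701 against TSA counted 2 higher and 0 lower, against 2.26% and 0.818% of all genes. TSA + A366 against TSA counted 0 higher and 1 lower, against 1.43% and 0.488% of all genes, and TSA + UNC0638 against TSA counted 4 higher and 1 lower, against 3.37% and 1.61% of all genes. Terb2 was called higher with RK-701 added (1.13 ± 0.24 (SE), adjusted p = 0.00655) and with UNC0638 added (1.33 ± 0.24 (SE), adjusted p = 0.00136). Hormad1 missed the threshold with both, at 0.94 ± 0.36 (SE), adjusted p = 0.129, and 1.13 ± 0.36 (SE), adjusted p = 0.0518. Meioc was at 25.7 and 22.5 CPM with TSA and 12.1 and 9.33 with TSA + UNC0638, and was lower in the latter (-1.17 ± 0.29 (SE), adjusted p = 0.0126). Its other treated values were 10.6 and 10.9 CPM (Kdm3a), 12.8 and 13.5 (Kdm4d), 13.4, 8.64 and 11.6 (RK-701), 13.4 and 18.5 (A366), 16.7 and 9.83 (TSA + RK-701) and 13.4 and 18.2 (TSA + A366). All calls of these 3 comparisons were lost without the first TSA library.

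The interaction term asks whether the combination differs from the sum of the log2 changes of its parts. For TSA with RK-701, the count was 2 higher and 0 lower, against 1.38% and 0.752% of all genes. The 2 members were Terb2 (1.20 ± 0.33 (SE), adjusted p = 0.0466) and Stk31 (1.54 ± 0.34 (SE), adjusted p = 0.0151), and neither was called with only the compared libraries, or without the first TSA or the second TSA + RK-701 library. Terb2 was also lost without the first LatA control library, any one RK-701 library or the first TSA + RK-701 library. For TSA with A366 the count was 0 higher and 0 lower, against 1.28% and 0.554% of all genes. The unadjusted p was under 0.05 for 10 members, against 4314 of the 25794 genes. DESeq2 gave 4 calls, and the count rose without the second LatA control library or the second TSA library.

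The 3 co-treatments used the same doses and times, so the inhibitors could be compared in the presence of TSA. TSA + A366 against TSA + RK-701 counted 0 higher and 0 lower, against 0% and 0% of all genes. TSA + UNC0638 against TSA + RK-701 counted 0 higher and 0 lower, against 0.671% and 0.275% of all genes, and TSA + UNC0638 against TSA + A366 counted 0 higher and 0 lower, against 0.737% and 0.12% of all genes. In the same order 4, 4 and 3 members had an unadjusted p under 0.05, against 999, 2972 and 2610 of the 25794 genes. DESeq2 called 0, 0 and 2 of the members. These p-values do not show that the inhibitors acted alike, since for most members the interval of the difference reached past 2-fold. It lay within 2-fold for 14, 16 and 14 of the 44 members. For Hormad1 the log2 difference was 0.23 (95% interval -0.49 to 0.95) between A366 and RK-701 and 0.18 (95% interval -0.54 to 0.90) between UNC0638 and RK-701. For Terb2 it was -0.21 (95% interval -0.70 to 0.28) and 0.20 (95% interval -0.30 to 0.69). For Tdrkh, called with 2 of the 3, the difference was -0.57 (95% interval -1.18 to 0.04) between A366 and RK-701.

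Each treated group was then set against the same 4 IVF libraries. With Kdm3a the count was 2 higher and 18 lower, against 6.56% and 6.25% of all genes, and with Kdm4d 2 higher and 15 lower, against 4.8% and 4.49% of all genes. TSA gave 2 higher and 16 lower, against 7.74% and 7.17% of all genes, RK-701 3 higher and 17 lower, against 6.62% and 5.2% of all genes, and A366 3 higher and 16 lower, against 8.03% and 7.16% of all genes. For the combinations the numbers were 2 higher and 11 lower, against 6.22% and 5.99% of all genes, with TSA + RK-701, 2 higher and 12 lower, against 5.48% and 5.43% of all genes, with TSA + A366 and 3 higher and 8 lower, against 5.49% and 4.35% of all genes, with TSA + UNC0638. The lower calls in the co-treated groups went down to 7 without the second TSA + RK-701 library, to 5 without the second TSA + A366 library and to 4 without the first TSA + UNC0638 library. With only the compared libraries in the fit, TSA + UNC0638 gave 17 calls, higher and lower together, in place of 11.

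Ddx4, Mael, Mov10l1, Sycp1 and Meioc were called lower than IVF in all 10 SCNT groups, and Rec8 and Majin higher in all 10. The share of all genes called in all 10 was not taken. Majin in the LatA control and with Kdm4d, and Rec8 with TSA + RK-701, lost the call with only the compared libraries. A replicate block removed these calls too, and those of Rec8 with TSA + A366 and Mov10l1 with TSA + UNC0638. With single libraries left out, Ddx4, Mael, Sycp1 and Meioc kept the call in every group. Mov10l1 lost it without either library of each co-treated group and without the first Kdm3a library. Rec8 and Majin lost several calls. Among these were Rec8 without either TSA + RK-701 library, and Majin without the first LatA control or the second Kdm4d library. In the co-treated groups Sycp1 was at 9.25% to 11.5% of the IVF mean, Meioc at 9.75% to 14.4%, and Mael at 11.6% to 16.6%. Hormad1 was at 42.7% to 50.03% and Terb2 at 83.9% to 111% of it. Terb2 was not called against IVF in any co-treated group, with log2 fold changes of -0.04, -0.25 and 0.15. All 5 of the genes lower in every group held an E-box or an E2F-like match in the promoter window, 4 of them the E-box, where 18 of the 37 members with an entry held one motif or the other. The remaining one, Meioc, held the E2F-like letters in the window that lies 1869 bases from its gene model.

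Several members were called in few comparisons. Fkbp6, a co-chaperone of the piRNA pathway, Asz1, a mitochondrial piRNA factor, Henmt1 and Piwil1 were called lower than IVF with Kdm3a, at 31.2%, 46.1%, 33.3% and 23.3% of the IVF mean. Smc1b, a meiotic cohesin subunit, was called lower with RK-701 (46.8%), and Tdrd6, a Tudor protein of the chromatoid body, with A366 (5.56%). The Tdrd6 call rests on a gene with a mean of 9.08 reads per library, and it was lost when any one library was left out. In all 31 comparisons, 11 members were never called: Tdrd5, Tdrd7, Tdrd9, Piwil2, Piwil4, Sycp2, Syce2, Hormad2, Spo11, Meiob and Stra8. The share of all genes never called was not taken, so this count cannot be read as particular to the members. Sycp2 and Syce2 were abundant among these 11 members, and Sycp2 ran from 43.3 TPM with TSA + RK-701 to 107 in the LatA control. Spo11, the enzyme that breaks DNA to start recombination, Stra8, which opens the meiotic program, and Meiob, a recombination protein, had group means under 4 TPM in every group.

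As a context, 30 of 34 other meiosis and piRNA genes were matched and 29 tested. Of these, 2 were higher and 8 lower than IVF in the SCNT control, against 8.12% and 6.87% of all genes. In the LatA control 2 were higher and 5 lower, against 8.8% and 6.51% of all genes. Gtsf1, a piRNA factor, was lower in both (-2.35 ± 0.36 (SE), adjusted p = 2.95e-05, and -2.58 ± 0.37 (SE), adjusted p = 1.05e-05), and Msh4, a crossover factor, was higher in both (1.38 ± 0.24 (SE), adjusted p = 9.76e-05, and 1.42 ± 0.24 (SE), adjusted p = 7.07e-05). In the co-treated groups 0 of 29 were higher and 1 lower with TSA + RK-701, 1 higher and 0 lower with TSA + A366, and 2 higher and 2 lower with TSA + UNC0638. Against the LatA control, the shares of all genes called higher and lower were 3.65% and 2.52% with TSA + RK-701. They were 3.05% and 2.94% with TSA + A366 and 3.64% and 2.54% with TSA + UNC0638. Tex12, a central element protein, was higher with TSA + A366 (1.23 ± 0.30 (SE), adjusted p = 0.00837) and TSA + UNC0638 (1.31 ± 0.30 (SE), adjusted p = 0.00534). Of the 15 genes of the E2F6 Polycomb complex, E2f6 itself was higher than IVF in both controls, at log2 fold changes of 1.28 and 1.14. In all, 2 of the 15 were called higher and 1 lower in the SCNT control and 1 higher in the LatA control. The shares of all genes in these and the following comparisons are those given above. Against the LatA control, 1 of the 15, Hdac1, was called higher with TSA + UNC0638 and none with TSA + RK-701 or TSA + A366.

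Markers of other cells that a pool could hold were also summed. The 6 sperm transcripts summed to 2.38 to 8.11 TPM in IVF, 12.6 to 14.1 in the SCNT control and 6.47 to 14.7 in the LatA control, where 1 library lay within the IVF range, with Tnp2 and Smcp at 0 in every library. The 8 cumulus cell markers summed to 8.30 to 20.0 TPM in IVF, 18.3 to 22.1 in the SCNT control and 12.5 to 16.7 in the LatA control, with Tnfaip6 the highest of them in each. The 6 genes that mark the 2-cell stage, such as Zscan4d and Zfp352, summed to 1039 to 1335 TPM in IVF, 1143 to 1311 in the SCNT control, 808 to 960.0 in the LatA control, 526 to 535 with TSA + RK-701 and 1811 to 2125 with TSA + UNC0638. All 6 were called higher with TSA + UNC0638 than in the LatA control, against 3.64% of all genes. The part of this difference in the member values of that group was not tested.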

How the data were processed

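The authors deposited 1 table of raw read counts per gene and per transposable element copy. Reads were trimmed (Trimmomatic) and aligned to mm10 (STAR, unique alignments) by the authors, who counted fragments over exons with featureCounts 1.6.2 without regard to strand; libraries were made by a poly(A) SMART-Seq method. All 25 count columns matched a sample. The members and lists were chosen with earlier results of these data known.

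The 25794 autosomal genes whose mean count reached 1 were fitted in R 4.3.3 with edgeR 4.0.16 (TMM factors, quasi-likelihood test, all 25 libraries, no covariates), and Benjamini-Hochberg adjusted over all genes. A call needed an adjusted p under 0.05 and a fold over 2. Intervals of differences used the residual and prior degrees of freedom. CPM used TMM-scaled library sizes, and TPM used autosomal genes. On simulated counts for TSA + RK-701 against LatA control over 25163 genes, 15 of 100 genes changed by 1.5 (log2, up or down) and 50 of 100 changed by 3 were called, with 1 other call. Alternatives were DESeq2 1.42.0, RLE factors, no filter, a replicate block, the other SCNT control, only the compared libraries, and each library left out.

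Members called in any of 10 comparisons with a control or in an interaction (27) were named; the 16 with the smallest adjusted p were given by library. Each library was a separate pool, but nothing states separate days or females, so p-values measure the spread between these pools. Depth limits low genes: 3 reads correspond to 0.142 to 0.450 CPM. Deviations of same-numbered libraries from their group means had correlations of -0.32 to 0.10, and numbers were not used as pairs. Promoters were taken from RefSeq (GRCm38.p6) for 37 members.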

Additional observations from a re-analysis of the deposited data

Results flagged for a closer look

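Hormad1 in the third IVF library, at 264 CPM, stood apart from the other 3 IVF libraries, and so did Piwil4 in the fourth IVF library, at 0.140 CPM, which is 2 reads. The test for a value far from the others was made on the 4 IVF libraries for each of 44 members, and chance gives about 1 in 20 such values.

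The effect of TSA with and without RK-701 differed for Terb2 (interaction 1.20 on the log2 scale) and for Stk31 (1.54). Terb2 stood at 52.5 and 32.5 CPM in the LatA control, 41.8 and 67.5 with TSA, 38.3, 43.3 and 40.0 with RK-701 and 108 and 131 with both. Stk31 stood at 47.4 and 58.9, 32.0 and 28.6, 24.1, 19.7 and 26.9 and 37.1 and 41.3 CPM in the same order. Both calls were lost with only the compared libraries.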

How the results depend on the processing

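Of the 19 calls in the SCNT control and 20 in the LatA control against IVF, 16 and 14 were kept under every alternative and with each library left out; of the 8, 9 and 6 calls with TSA + RK-701, TSA + A366 and TSA + UNC0638, 3, 1 and 2 were, and none of those with Kdm3a (2), Kdm4d (2) or RK-701 (4). Numbers of called members outside 1.5 times the reported count are given by setting, and the cause was not tested.

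With DESeq2, the count was 4 for Kdm3a against SCNT control, 5 for Kdm4d against SCNT control, 5 for TSA against LatA control, 2 for A366 against LatA control, 6 for TSA + A366 against A366, 2 for TSA + A366 against TSA, 8 for TSA + UNC0638 against TSA, 4 for A366 against RK-701, 2 for TSA + UNC0638 against TSA + A366, 4 for the TSA by RK-701 interaction and 4 for the TSA by A366 interaction. With RLE factors, the count was 1 for the TSA by RK-701 interaction. With no filter on low counts, the count was 4 for Kdm3a against SCNT control, 5 for Kdm4d against SCNT control, 5 for TSA against LatA control, 2 for A366 against LatA control, 8 for TSA + A366 against A366, 4 for TSA + RK-701 against TSA, 3 for TSA + A366 against TSA, 4 for A366 against RK-701, 1 for TSA + UNC0638 against TSA + A366, 1 for LatA control against SCNT control, 2 for Kdm4d against Kdm3a, 4 for the TSA by RK-701 interaction and 3 for the TSA by A366 interaction. With a replicate block, the count was 2 for RK-701 against LatA control, 1 for TSA + RK-701 against TSA, 0 for TSA + A366 against TSA, 0 for Kdm4d against Kdm3a and 1 for the TSA by RK-701 interaction. With the other SCNT control as reference, the count was 4 for TSA against LatA control, 2 for RK-701 against LatA control, 1 for A366 against LatA control and 5 for TSA + A366 against LatA control. With only the compared libraries, the count was 4 for Kdm3a against SCNT control, 4 for Kdm4d against SCNT control, 1 for TSA against LatA control, 0 for RK-701 against LatA control, 4 for TSA + RK-701 against LatA control, 3 for TSA + A366 against LatA control, 17 for TSA + UNC0638 against IVF, 8 for TSA + A366 against A366, 3 for TSA + A366 against TSA, 4 for A366 against RK-701, 1 for LatA control against SCNT control, 0 for Kdm4d against Kdm3a and 0 for the TSA by RK-701 interaction.

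The library number after each range is the one whose removal moved the count by over 1.5 times. Leaving out 1 library at a time, the count ran over 0 to 3 for Kdm3a against SCNT control (with SCNT control 1 and Kdm3a 1), 0 to 2 for Kdm4d against SCNT control (with SCNT control 1, Kdm4d 1 and Kdm4d 2), 0 to 4 for TSA against LatA control (with LatA control 2 and TSA 2), 1 to 4 for RK-701 against LatA control (with LatA control 2, RK-701 1 and RK-701 3) and 0 to 3 for A366 against LatA control (with LatA control 2). It ran over 5 to 11 for TSA + RK-701 against LatA control (with LatA control 2 and TSA + RK-701 2), 4 to 9 for TSA + A366 against LatA control (with TSA + A366 1 and TSA + A366 2), 4 to 10 for TSA + UNC0638 against LatA control (with LatA control 1), 8 to 13 for TSA + RK-701 against IVF (with TSA + RK-701 2) and 7 to 15 for TSA + A366 against IVF (with TSA + A366 2). It ran over 6 to 12 for TSA + UNC0638 against IVF (with TSA + UNC0638 1), 5 to 11 for TSA + RK-701 against RK-701 (with RK-701 1 and TSA + RK-701 2), 1 to 4 for TSA + A366 against A366 (with A366 2), 0 to 3 for TSA + RK-701 against TSA (with TSA 1 and TSA + RK-701 2) and 0 to 2 for TSA + A366 against TSA (with TSA 1, TSA 2, TSA + A366 1 and TSA + A366 2). It ran over 0 to 5 for TSA + UNC0638 against TSA (with TSA 1, TSA + UNC0638 1 and TSA + UNC0638 2), 0 to 1 for TSA + UNC0638 against TSA + A366 (with TSA + UNC0638 1), 0 to 1 for Kdm4d against Kdm3a (with Kdm3a 2, Kdm4d 1 and Kdm4d 2), 0 to 3 for the TSA by RK-701 interaction (with TSA 1, RK-701 1, RK-701 2, RK-701 3, TSA + RK-701 1 and TSA + RK-701 2) and 0 to 6 for the TSA by A366 interaction (with LatA control 2 and TSA 2).

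Same-numbered libraries did not deviate together (correlations of -0.32 to 0.10), so the replicate block compares libraries that share only a number; crossing the numbers, chosen after this correlation was seen, gave 0 calls for TSA against LatA control and 0 for LatA control against SCNT control. One result changed sign: Sycp1 in TSA + RK-701 against RK-701 was -0.17 on the log2 scale without the second TSA + RK-701 library and 2.09 without the first, these libraries standing at 20.1 and 96.3 CPM.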
